A study of Mus musculus with 16 samples.

Results

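The Ly6 family of surface proteins was followed in the mouse colon through 6 genes, Ly6m, Ly6a, Ly6c1, Ly6d, Ly6e and Ly6i. Every array probe whose platform gene symbol was one of these names was taken. That gave 5 of the 6 genes, out of 16593 named on the array, and 6 of 25697 probes, 1 each for Ly6m, Ly6c1, Ly6e and Ly6i and a pair for Ly6d (called probe a and probe b). Ly6a, the Sca-1 stem cell antigen, had 0 probes under its symbol and is not analysed here. The genes were selected on their log2 values in these samples and on the differences between the groups, so those differences are given as descriptions, without p-values, and the counts of members past the fit's threshold are no independent test of them. Their variation among samples of the same group did not enter that choice, and it was tested against marker lists. Those lists were chosen with earlier results of these data known, which limits that test.

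Whole colons of male C57Bl/6J mice were hybridised to Illumina 1-colour bead arrays, 1 array per sample. The 4 control samples were untreated, 6 samples came from mice given dextran sulfate sodium (DSS), a polysaccharide that injures the colon lining and brings on colitis, and 6 from mice given DSS with methylthioadenosine (MTA), a sulfur-containing nucleoside of the polyamine and methionine pathways. Doses, times, ages and the number of animals behind a sample were not in the labels used here, so p-values measure the spread between these samples, which may be technical. The values are the authors' normalised intensities, used as log2 of the intensity. The median of all values was 6.81 on that scale, and correlations between arrays of 1 group ran from 0.959 to 0.994. The tissue label was checked with 9 measured markers of colon epithelium, and all 12 of their probes had means at or above the array median.

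Ly6 proteins are small, cysteine-rich proteins that take a fold of 3 loops shared with the urokinase receptor, and most are tied to the outer face of the cell membrane by a lipid anchor. In mice, the Ly6C antigen of Ly6c1 or its close copy Ly6c2 is found on endothelial cells, monocytes and some T cells. Ly6d is found on B-lineage lymphocytes and on cells of stratified epithelia. Ly6e is induced by interferons and alters the entry of several viruses into cells. Ly6i was described on bone marrow and myeloid cells.

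Ly6m had the largest difference between groups among the 6 probes. In the 4 controls its log2 intensities were 7.75, 9.49, 6.50 and 6.58. With DSS the lowest, median and highest values were 10.84, 11.40 and 12.35, and with DSS and MTA 10.44, 11.32 and 11.94. All 12 treated samples lay above all 4 controls, and the treated groups overlapped. The mean was 7.58 ± 1.39 (SD, n = 4) in controls, 11.50 ± 0.64 (SD, n = 6) with DSS and 11.27 ± 0.62 (SD, n = 6) with DSS and MTA. The difference from control was 3.92 ± 0.51 (SE) with DSS, which is 15.1-fold, and 3.68 ± 0.51 with DSS and MTA, which is 12.8-fold. DSS with MTA differed from DSS by -0.24 ± 0.46 (SE), with a 95% interval of the fit from -1.21 to 0.74.

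The controls of Ly6m did not lie together. Replicates 3 and 4 were below the median of all values, and replicate 2, at 9.49, lay far above both. Without control replicate 2 the DSS difference was 4.56, and without control replicate 3 it was 3.56. The earlier and the later samples in accession order, with every group in both sets, were also fitted apart. The DSS difference was then 2.71 in the earlier set and 5.13 in the later, and that of DSS with MTA from control 2.52 and 4.84. The labels do not say what these sets share, and whether they mark a batch was not tested.

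**Figure D1:**
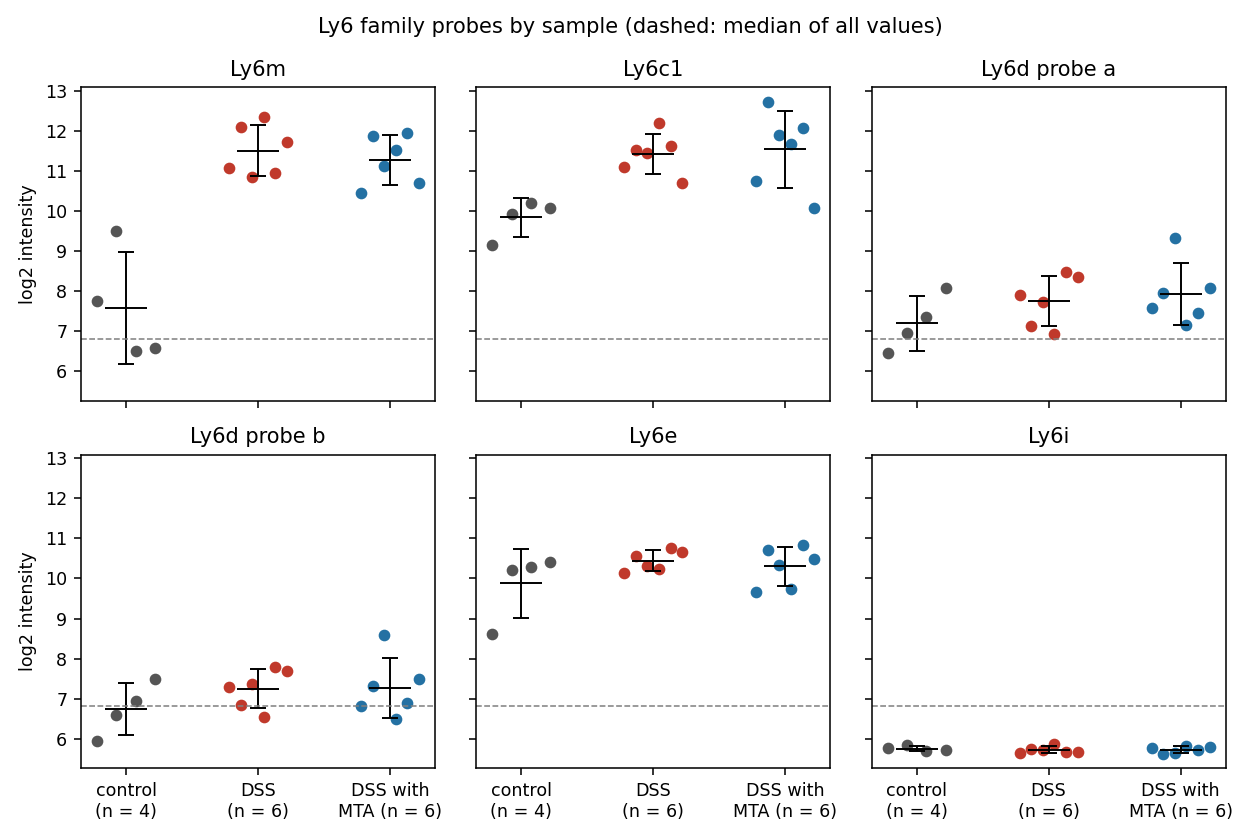
Log2 intensity of the 6 Ly6 family probes in each sample (points), with the group mean and SD (bars), for 4 controls, 6 DSS samples and 6 samples of DSS with MTA; the dashed line is the median of all values, 6.81. Ly6m in all 12 treated samples lies above its 4 controls, whose values run from 6.50 to 9.49, and Ly6i lies below the line in every sample.

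Ly6c1 was also higher in the treated colons. Its log2 intensities were 9.14, 9.92, 10.21 and 10.08 in controls. The lowest, median and highest were 10.69, 11.49 and 12.18 with DSS, and 10.07, 11.79 and 12.73 with DSS and MTA. Every DSS sample lay above every control, while replicate 6 of DSS with MTA fell within the control range. The mean went from 9.84 ± 0.48 (SD, n = 4) in controls to 11.43 ± 0.50 (SD, n = 6) with DSS and 11.53 ± 0.96 (SD, n = 6) with DSS and MTA. The differences from control were 1.59 ± 0.42 (SE), or 3.01-fold, and 1.70 ± 0.42, or 3.24-fold. DSS with MTA differed from DSS by 0.11 ± 0.38, with a 95% interval from -0.69 to 0.91. Of the 12 treated samples, the highest and the lowest Ly6c1 values were both in the group given MTA. The earlier and the later samples gave 1.82 and 1.35 for DSS over control.

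Ly6c1 has a close copy in the genome, Ly6c2, which had 0 probes under its symbol. Whether the Ly6c1 probe also reads Ly6c2 was not tested, so its values may belong to both genes. Of the 6 genes, 1 had an entry in the RefSeq promoter table used (GRCm38.p6), Ly6c1. The 250 bases before its most upstream listed start are shown with those of Ly6c2, so that the likeness of the copies can be seen. Both lie on the minus strand, Ly6c1 at chr15:75048838-75049087 and Ly6c2 at chr15:75111972-75112221, and capitals mark runs of at least 12 bases that occur in both.
Ly6c1: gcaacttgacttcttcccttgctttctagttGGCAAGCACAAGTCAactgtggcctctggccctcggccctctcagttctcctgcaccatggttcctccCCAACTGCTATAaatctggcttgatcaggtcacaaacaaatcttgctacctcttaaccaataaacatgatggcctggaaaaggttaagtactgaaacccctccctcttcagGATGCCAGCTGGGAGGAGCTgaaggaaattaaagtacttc
Ly6c2: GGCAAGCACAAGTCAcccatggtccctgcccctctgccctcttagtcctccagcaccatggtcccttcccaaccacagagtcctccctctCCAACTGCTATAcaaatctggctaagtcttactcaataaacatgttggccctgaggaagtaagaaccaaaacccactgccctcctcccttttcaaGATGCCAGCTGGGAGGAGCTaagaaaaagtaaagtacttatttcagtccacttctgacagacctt
Over 216 aligned bases, 164 (75.9%) were identical, and the longest shared run was 20 bases. The STAT-type motif TTCNNNGAA, which reads the same on both strands, was in neither window and in 7.02% of all 32851 windows of this length in the table. TATAAA, on either strand, occurred 1 time in the Ly6c1 window and 0 times in that of Ly6c2, against 12.4% of windows with a match.

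Ly6e, an interferon-induced member, differed less between groups. In controls its log2 intensities were 8.61, 10.21, 10.29 and 10.42. The lowest, median and highest were 10.14, 10.43 and 10.77 in DSS samples and 9.66, 10.42 and 10.84 with DSS and MTA. All 3 groups overlapped, and control replicate 1 stood below all 15 other samples. The means were 9.88 ± 0.85 (SD, n = 4), 10.44 ± 0.26 (SD, n = 6) and 10.30 ± 0.50 (SD, n = 6). DSS differed from control by 0.56 ± 0.32 (SE), DSS with MTA from control by 0.42 ± 0.32 and from DSS by -0.14 ± 0.28, with a 95% interval from -0.75 to 0.46. Without control replicate 1 the first was 0.14 and the second -0.01, so their size rested on that array.

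Ly6d, the B-lineage and stratified epithelium antigen in mice, was read by a pair of probes that agreed closely. Probe a gave 6.45, 6.94, 7.34 and 8.07 in controls. The lowest, median and highest were 6.94, 7.81 and 8.47 with DSS, and 7.14, 7.76 and 9.33 with DSS and MTA. Probe b gave 5.94, 6.59, 6.95 and 7.48 in controls, 6.53, 7.32 and 7.79 with DSS and 6.49, 7.10 and 8.59 with DSS and MTA. The groups overlapped, and the highest sample was replicate 3 of DSS with MTA on both probes, at 9.33 and 8.59. DSS differed from control by 0.55 ± 0.41 (SE) on probe a and 0.51 ± 0.38 on probe b. For DSS with MTA against DSS the values were 0.17 ± 0.37, with a 95% interval from -0.61 to 0.95, and 0.01 ± 0.34. Without that highest sample they were -0.12 and -0.26, and without control replicate 1 the DSS differences were 0.30 and 0.24. DSS with MTA differed from control by 0.72 ± 0.41 on probe a, which was 1.59 in the earlier samples and -0.15 in the later. After the group means were removed, the probes correlated at 0.987 over the 16 arrays.

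Ly6i showed no signal that could be read. Its log2 intensities lay between 5.62 and 5.88 in all 16 samples, every one below the median of its array, and its mean was in the lowest 2.8% of all probes. The differences between groups were -0.03 ± 0.06 (SE) for DSS over control and 0.00 ± 0.05 between the treated groups. At this signal a difference in Ly6i was not detectable.

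Of the 6 probes, 2 were past an adjusted p of 0.05 (limma, Benjamini-Hochberg over all 25697 probes) for DSS against control, Ly6m and Ly6c1, both higher. Of all probes 6.86% were called there, 4.12% of all as higher. The same 2 probes were past it when DSS with MTA was set against control, where 2.08% of all were called and 1.21% were higher. Between the treated groups it was 0 of 6, against 0.144% of all probes (0.0311% higher, 0.113% lower). The choice of genes used these values, so the counts, here and with arrays left out, describe the fit and nothing is read from them. Ly6m was past the threshold whichever array was left out, but not in the earlier samples alone, where 0 of 6 were. Ly6c1 was not past it for DSS against control without any 1 of control replicates 1 to 4 or DSS replicates 2 to 5, when the count fell to 1. For the MTA group over control the count was 1 in 13 of 16 fits with an array removed, all except those without DSS replicate 6 or without replicate 1 or 6 of DSS with MTA. Groups that did not overlap were found for 2 of 6 probes with DSS (5.19% of all probes were higher without overlap, 4.12% lower) and for 1 of 6, Ly6m, with DSS and MTA against control (2.69% higher, 2.30% lower). Between the treated groups it was 0 of 6, against 0.315% higher and 0.327% lower. The median difference over the 6 probes was 0.56 for DSS against control, where the median of all probes was -0.02. It was 0.01 for DSS with MTA against DSS, as for all probes.

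**Figure D2:**
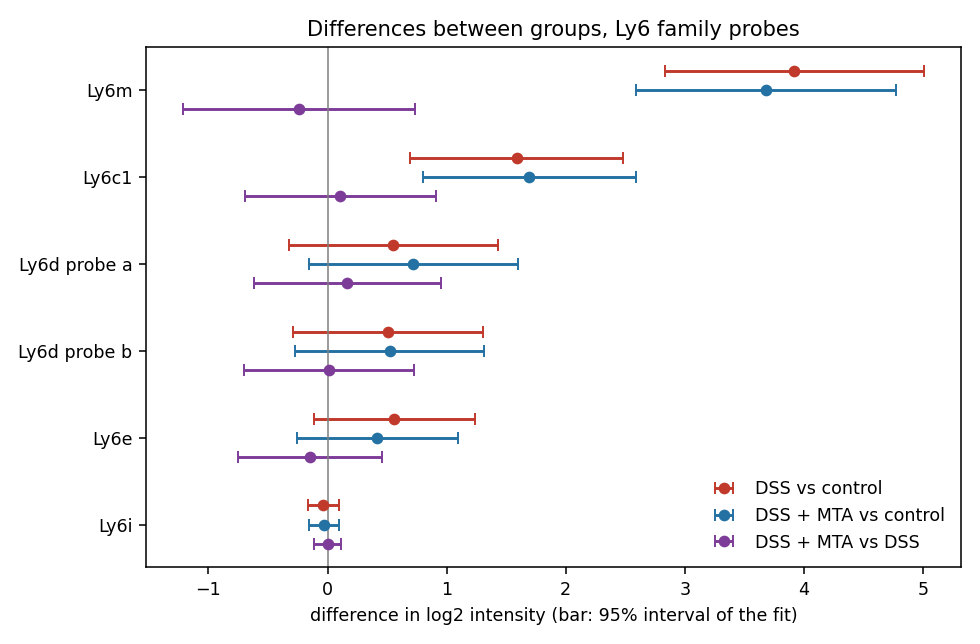
Difference in log2 intensity between groups for each Ly6 family probe (points) with the 95% interval of the limma fit over 16 arrays (bars). Ly6m (3.92 and 3.68) and Ly6c1 (1.59 and 1.70) lie above 0 against control, and the interval for DSS with MTA against DSS includes 0 for all 6 probes.

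Markers of other cell types moved with the treatments as well, and their part in the values above was not tested. As background for the counts below, an unadjusted p under 0.05 was found for 21.4% of all probes for DSS over control, 11.5% between the treated groups and 3846 of 25697 for the MTA group over control. In bulk colon, more cells of a type and more RNA per cell cannot be told apart. Endothelial markers rose with DSS in 6 of 11 measured genes, for example the vessel protein Eng (1.02 ± 0.16, limma adjusted p = 0.00135). Their intensities summed to 4432 to 6325 in controls, 7169 to 12454 with DSS and 3853 to 9231 with DSS and MTA, and 1 of 12 probes had a mean below the array median. Their median difference was -0.58 for DSS with MTA against DSS, where 0 of 11 genes passed (limma; 10 of 12 probes had an unadjusted p under 0.05) and Ly6c1 stood at 0.11. Monocyte and macrophage markers rose with DSS in 2 of 12 genes, Plac8 (0.47 ± 0.11) and the Fc receptor Fcgr3 (1.26 ± 0.36), with sums of 15338 to 22612, 23632 to 32807 and 19901 to 37339 in the 3 groups and 6 of 16 probes with means below the array median. Interferon-response genes rose in 14 of 25 genes with DSS, such as Gbp2 (1.96 ± 0.30), and in 10 of 25 with DSS and MTA against control, with 0 of 25 called between the treated groups (limma; 2 of 40 probes at an unadjusted p under 0.05). Their sums were 26741 to 27560, 38114 to 60938 and 41193 to 52065. Neutrophil markers rose in 8 of 14 genes with DSS and 2 with DSS and MTA against control. Between the treated groups 0 of 14 were called (limma; 8 of 23 probes at an unadjusted p under 0.05), with a median difference of -0.11. Their sums were 1577 to 1688, 2993 to 7497 and 2048 to 3690, and 16 of 23 probes had means below the array median.

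No lymphocyte marker of 13 passed in any of the 3 comparisons (limma, adjusted p from 0.226 to 0.531 for the 3 smallest in each, and 2, 0 and 0 of 14 probes at an unadjusted p under 0.05). Their summed intensity was 1390 to 2586 in controls, 1250 to 2630 with DSS and 1420 to 6196 with DSS and MTA. Markers of stratified squamous epithelium, where Ly6d is also found, summed to 1841 to 1970, 1809 to 2231 and 1930 to 2248. Of their 21 probes 18 had means below the array median, among them those of Krt5, and 1 of 18 genes, Lor, fell with DSS (-0.53 ± 0.14, limma adjusted p = 0.0293). None of the 18 passed as higher, and Sprr1a stood at 0.91 ± 0.27 (limma adjusted p = 0.0552). Injury-associated epithelial genes rose with DSS in 3 of 11 genes, Gja1 (1.08 ± 0.14), Il33 (2.20 ± 0.31) and Cldn4 (1.23 ± 0.32). Of these, the gap junction gene Gja1 fell with MTA added (-0.93 ± 0.12, limma adjusted p = 0.0235). That call was lost without DSS replicate 2, without replicate 6 of DSS with MTA and with only the 2 groups fitted. In each of those fits 0 of all probes were called between the treated groups. Colon epithelium markers passed in 0 of 9 genes in each comparison (limma; 3, 0 and 4 of 12 probes at an unadjusted p under 0.05), with sums of 107658 to 150778, 111751 to 133199 and 113903 to 141285.

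Variation within groups was compared with the marker lists, which were chosen with earlier results of these data known. The deviation of each probe from its group mean was set against the mean deviation of each of 8 lists. Over the 16 arrays, each of the 48 pairs had a p-value from 100000 permutations within groups (two-sided), adjusted over the 48. The permutations take samples of a group as exchangeable, which was not tested. Replicate 1 of control, DSS and DSS with MTA deviated by -1.28, -0.30 and -0.64 in Ly6e. The values were -0.69, -0.34 and -0.79 in Ly6c1 and -0.66, -0.48 and -0.47 in the injury-associated epithelial genes. In Ly6d probe a they were -0.75, 0.15 and -0.34. If equal replicate numbers mark paired samples, the p-values do not allow for it. Ly6d followed lymphocyte markers, with Pearson's r of 0.883 (permutation p = 6e-05, adjusted p = 0.0024) and Spearman's rho of 0.75 (permutation p = 0.00143, adjusted p = 0.0343) on probe a. Probe b gave 0.872 (permutation p = 0.0001, adjusted p = 0.0024) and 0.741 (permutation p = 0.00241, adjusted p = 0.0386). Within DSS samples r was 0.936 on probe a and within DSS with MTA 0.889. It was 0.794 without the 2 arrays farthest from the median of the list, replicate 3 of DSS with MTA and DSS replicate 5. Replicate 3 of DSS with MTA, highest in Ly6d, was also highest in the lymphocyte list, at 1.27 above the control mean. With stratified squamous markers r was 0.12 on probe a, 0.896 within DSS samples and -0.353 within DSS with MTA.

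Ly6e followed the injury-associated epithelial genes, with r of 0.819 (permutation p = 0.00022, adjusted p = 0.00352) and rho of 0.868 (permutation p = 2e-05, adjusted p = 0.00096). Within DSS samples r was 0.722, within DSS with MTA 0.819, and 0.768 without control replicate 1 and DSS replicate 1, the arrays farthest from the median of that list. Control replicate 1, lowest in Ly6e, was also the lowest control in these genes, at -0.66 against the control mean. With interferon-response genes r was -0.08 (permutation p = 0.674). With colon epithelium markers it was -0.586 and did not pass (permutation p = 0.0471, adjusted p = 0.205). That value was -0.344 without control replicate 1 and replicate 2 of DSS with MTA. Which cells of the colon gave the Ly6e signal, or that of the injury-associated list, was not tested.

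Ly6c1 varied with endothelial markers at r of 0.828 (permutation p = 0.00118, adjusted p = 0.0142), while its rho of 0.656 did not pass (permutation p = 0.0167, adjusted p = 0.1). Leaving out replicates 2 and 6 of DSS with MTA, the farthest from the median of the list, gave 0.623. Within DSS samples r was 0.746 and within DSS with MTA 0.884. With monocyte and macrophage markers r was 0.762 (permutation p = 0.00371, adjusted p = 0.0297) and rho 0.738 (permutation p = 0.00467, adjusted p = 0.0489), at 0.694 without replicate 2 of DSS with MTA and DSS replicate 5. This relation was 0.453 within DSS samples and 0.823 within DSS with MTA. Replicates 2 and 6 of DSS with MTA were the highest and the lowest treated sample in Ly6c1. They were also the highest and the lowest in both lists within their group. With injury-associated epithelial genes Ly6c1 had an r of 0.658 (permutation p = 0.0161, adjusted p = 0.0898). Its rho there was 0.641 (permutation p = 0.0162, adjusted p = 0.1), and neither passed. With interferon-response genes the r of Ly6c1 was 0.305 (permutation p = 0.212).

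Ly6m, the member with the largest difference, passed with 0 of the 8 lists, and its largest r was 0.348, with endothelial markers (permutation p = 0.134). Its relation to neutrophil markers was -0.961 within DSS samples, -0.965 within the 4 controls and 0.716 within DSS with MTA. With injury-associated epithelial genes r was 0.6, -0.219 and 0.849 in the same order, and 0.322 over the 16 arrays (permutation p = 0.282). For both lists the difference between groups was not tested. Ly6i correlated with lymphocyte markers at -0.659 (permutation p = 0.00363, adjusted p = 0.0297) and a rho of -0.703 (permutation p = 0.0057, adjusted p = 0.0489), although all its values lie within the narrow, dim range given above. Of the 48 pairs, 6 passed by Pearson's r and 5 of them by rho as well, and Ly6e with monocyte and macrophage markers passed by rho alone (adjusted p = 0.0489, against 0.0704 for r). All points share the arrays and the authors' normalisation. Ly6m and Ly6c1 correlated at 0.314 with each other after group means were removed, and Ly6m and Ly6d probe a at -0.449.

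**Figure D3:**
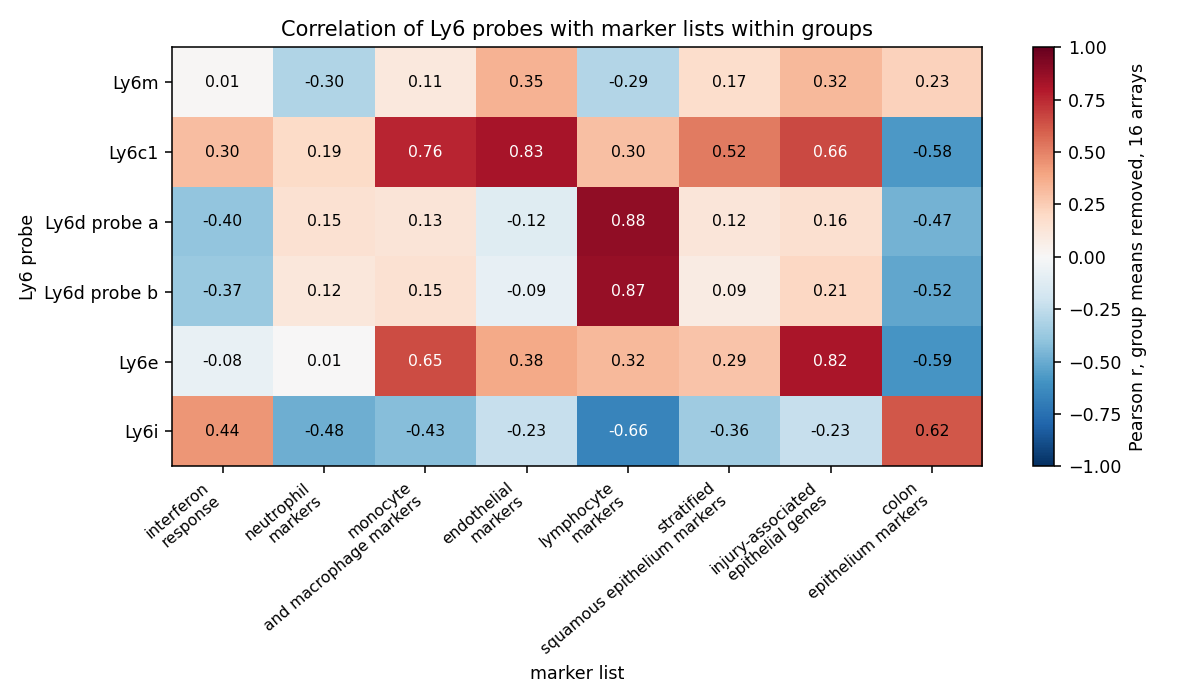
Pearson's r between each Ly6 family probe (rows) and the mean of each marker list (columns) over 16 arrays, after subtracting group means; red is positive and blue negative. Ly6d stands out with lymphocyte markers (0.88 and 0.87) and Ly6e with injury-associated epithelial genes (0.82). Ly6c1 is high with more than 1 list, at 0.83 with endothelial, 0.76 with monocyte and macrophage and 0.66 with injury-associated epithelial genes. Ly6m has no value above 0.35.

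**Figure D4:**
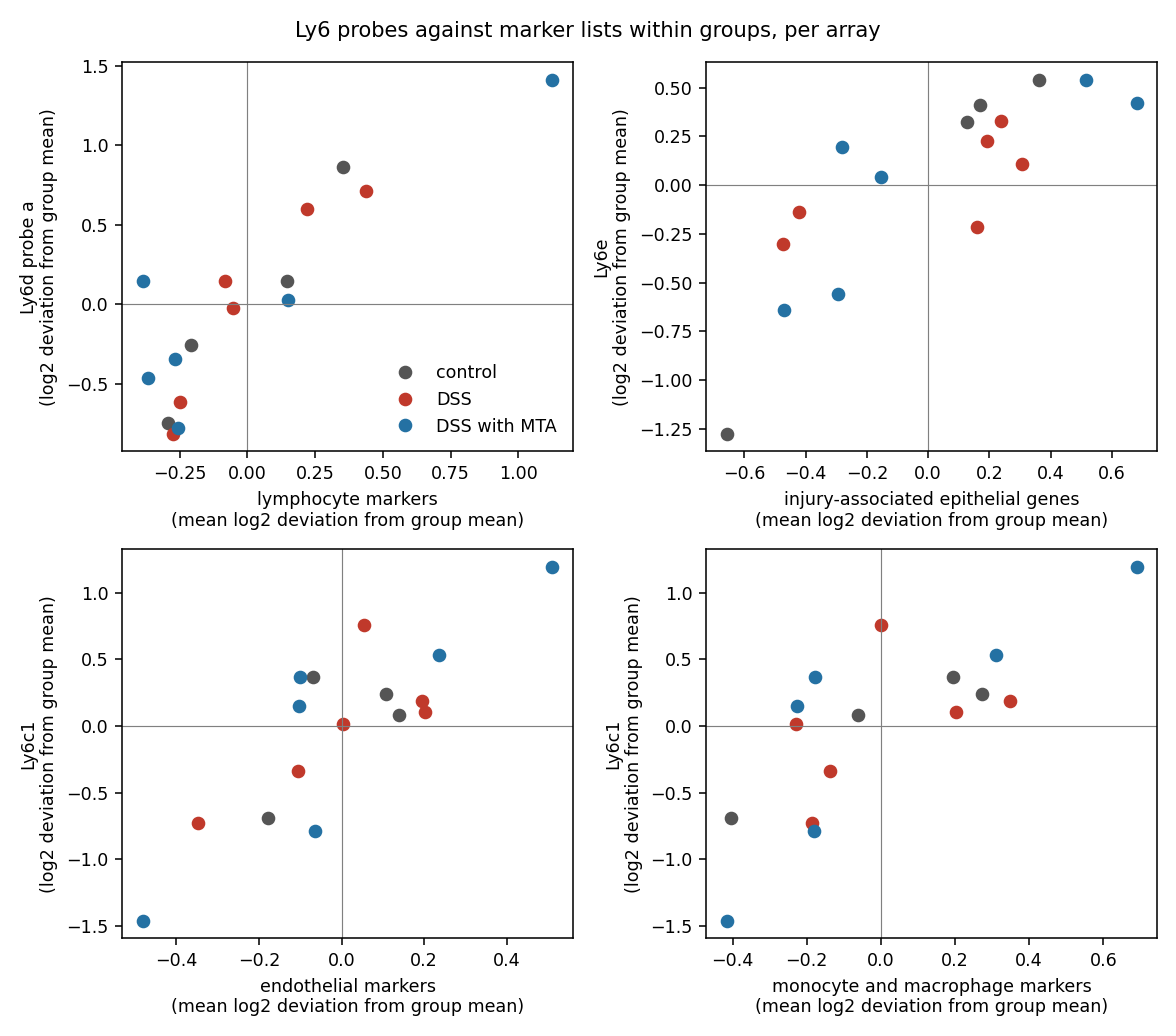
Deviation of a Ly6 family probe from its group mean (vertical, log2) against the mean deviation of a marker list (horizontal, log2) for each of 16 arrays, coloured by group. In the panel of Ly6d probe a, replicate 3 of DSS with MTA lies far to the upper right, and r is 0.794 without it and DSS replicate 5.

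The single genes most like each member were ranked by the same within-group correlation over 16 arrays, among 9053 named genes. They are the highest of many values and carry no test. For Ly6d they were the class II gene H2-Eb2 (0.95), the IgM receptor Fcmr (0.929) and the GTPase gene Gimap7 (0.927). For Ly6c1 they were the complement gene C4b (0.885), the kinase Map3k6 (0.88) and the receptor Gpr182 (0.876). For Ly6e they were the chloride channel Ano1 (0.904), Bex4 (0.90) and the matrix protein Fbln1 (0.893), and for Ly6m Clca4a (0.856), the integrin subunit Itgb6 (0.823) and the transcription factor Fos (0.82). Those of Ly6i, Slc25a16 (0.884), Nme7 (0.861) and Zfp825 (0.824), describe a probe without readable signal.

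In the RefSeq table of GRCm38.p6 the 6 genes lie in 1 cluster on chromosome 15, in the order Ly6d, Ly6m, Ly6e, Ly6i, Ly6a and Ly6c1. The measured genes from Ly6d to Ly6h with 5 more on each side, a range chosen after the values were seen, held 16 genes other than the members, read by 28 probes. Of these, 2 passed for DSS against control, Lynx1 on 1 of its 2 probes (0.62 ± 0.18, limma adjusted p = 0.0497) and Zfp41 on 1 of its 2 (-0.37 ± 0.10, limma adjusted p = 0.0331). The steroid enzyme gene Cyp11b2, the measured neighbour of Ly6m on 1 side, stood at -0.01 ± 0.09 and -0.06 ± 0.07 on its 2 probes, and Ly6e on the other at 0.56 ± 0.32. Ly6f, the measured gene next to Ly6c1, had 6.41 ± 0.40 (SD, n = 6) with DSS and 5.83 ± 0.11 (SD, n = 4) in controls. Its DSS samples lay above the controls without overlap, as for 5.19% of all probes, but the difference of 0.58 ± 0.24 (SE) did not pass (limma adjusted p = 0.162). Its mean over all arrays, 6.33, was below the median of all values.

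Of 43 other genes of the Ly6 and urokinase receptor superfamily, 31 were measured by 36 probes. With DSS 5 genes rose, on 5 probes, and 0 fell, where 4.12% of all probes were called higher and 2.74% lower. The median difference of the 36 probes was 0.08 against -0.02 for all probes. Plaur, the urokinase receptor that localises plasminogen activation, rose by 1.37 ± 0.11 (SE, limma adjusted p = 8.56e-06), from 7.11, 7.19, 7.18 and 7.16 in controls to between 8.19 and 8.73 with DSS. The complement regulators Cd59a and Cd59b rose by 1.02 ± 0.20 (limma adjusted p = 0.00696) and, on 1 of 2 probes, 0.88 ± 0.17 (limma adjusted p = 0.00571). Lypd3, a surface protein of stratified epithelia, rose by 0.65 ± 0.14 (limma adjusted p = 0.00957), with a DSS mean of 6.77, below the median of all values. Lynx1, which binds nicotinic receptors, rose by 0.62 ± 0.18 on 1 probe and stood at 0.21 ± 0.11 on the other. Its call was lost in 11 of the 16 fits without 1 array, among them all those without a DSS sample or without control replicate 1, 3 or 4, where the difference was 0.51 to 0.66.

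With DSS and MTA, Plaur remained above control by 0.97 ± 0.11 (limma adjusted p = 4.52e-04), and it was the 1 gene of the 31 to pass. Between DSS with MTA and DSS 0 of 31 passed (limma), and 8 of 36 probes had an unadjusted p under 0.05, where 11.5% of all probes did. Plaur stood at -0.40 ± 0.10, with a 95% interval from -0.62 to -0.19, Cd59b at -0.51 ± 0.15, Cd59a at -0.40 ± 0.18 and Lypd3 at -0.35 ± 0.12 (limma adjusted p from 0.128 to 0.402). Without replicate 5 of DSS with MTA, Plaur passed at -0.48. For the other family genes named by rule, Ly6h stood at 0.19 ± 0.10, 0.33 ± 0.17 and 0.33 ± 0.18 on 3 probes for DSS against control and Ly6k at 0.05 ± 0.09, and neither passed. Ly6g, the neutrophil antigen, Ly6c2 and Lypd8 are not analysed here.

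**Figure D5:**
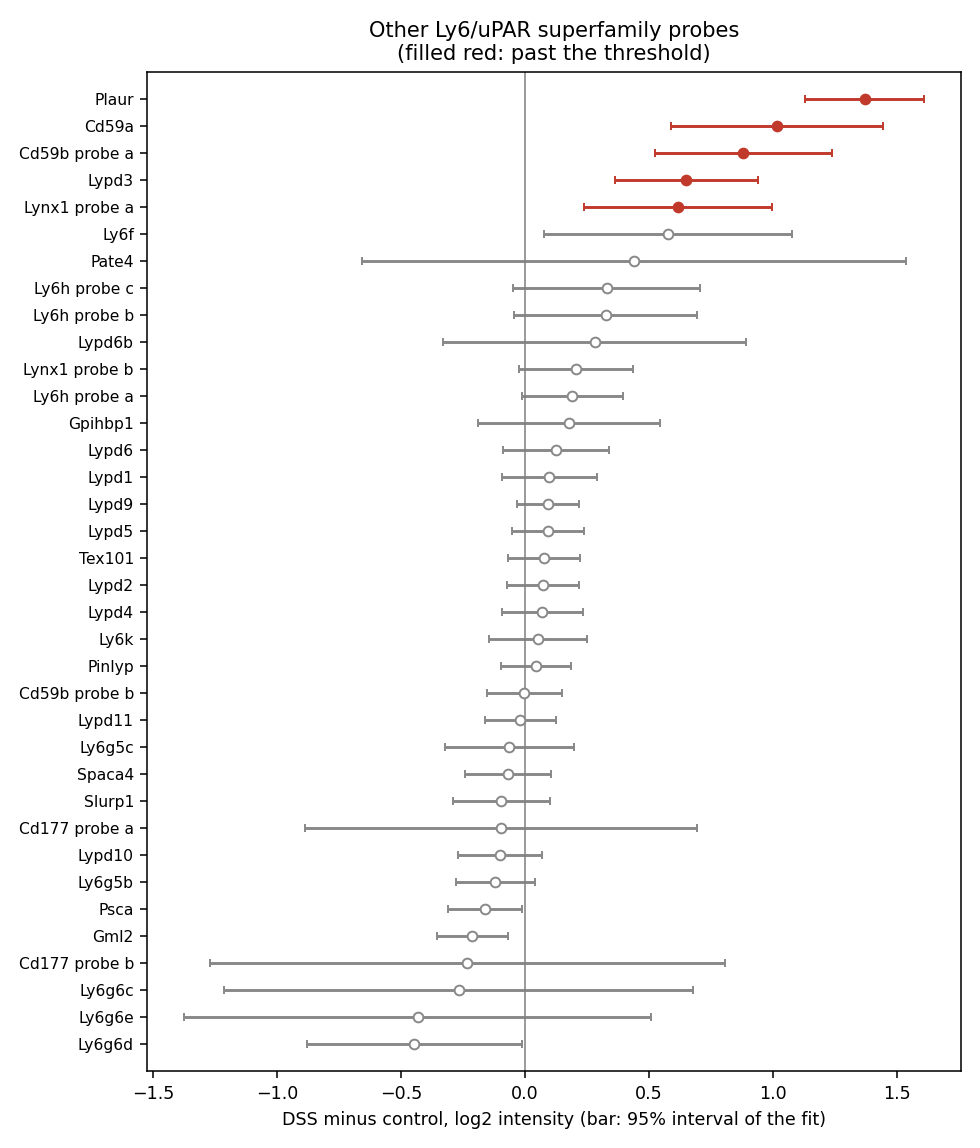
DSS minus control in log2 intensity for the 36 probes of other Ly6 and urokinase receptor superfamily genes (points), with the 95% interval of the limma fit (bars); filled red points are past the threshold. Plaur (1.37), Cd59a (1.02), Cd59b (0.88), Lypd3 (0.65) and Lynx1 (0.62) on 1 probe each pass, and none of the probes below 0 does.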

How the data were processed

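Total RNA of whole colon was amplified, labelled with biotin and hybridised to Illumina bead arrays, per the labels' protocols. The authors deposited normalised, linear intensity values of 25697 probes, and these were used. Array medians were 112.012 to 112.22, so the arrays had been normalised. For the software, background step, method and genome build, nothing is given in the sources used here. The un-normalised table was not used, since its 32 columns match no label of a sample. Gene names came from the platform annotation, with 23978 probes named, 0 with several symbols and 1719 unnamed, and of these 23962 were found in the RefSeq table of GRCm38.p6, which changed 0 symbols. Samples were grouped by their titles.

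Group differences in log2 intensity of every probe came from limma 3.58.1 under R 4.3.3 (group means over all 16 arrays, no covariate, eBayes), with Benjamini-Hochberg adjustment over all probes and two-sided tests. No filter on low values was applied. The number of arrays limits the precision. Sequences were aligned with Biopython 1.88. The fit was tested on simulated data. The members and the 9 gene lists were chosen with earlier results of these data known. The genes named are all members, other superfamily genes past the threshold with Ly6c2, Ly6g, Ly6f, Ly6h, Ly6k and Lypd8, up to 3 genes of each other list and the 3 genes most like each member. Alternatives covered scaling, background, filters, blocks, weights and single arrays. Those for the correlations were chosen after seeing the data.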

Additional observations from a re-analysis of the deposited data

Results flagged for a closer look

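In Ly6e, control replicate 1 stood apart from the other controls by Dixon's criterion, at a log2 intensity of 8.61 against 10.21 for the nearest, with a gap of 0.881 of the group's range. In the first probe of Lynx1, DSS replicate 2 stood apart at 10.12 against 9.62 for the nearest DSS sample, with a gap of 0.691 of the range. These were 2 of 33 groups tested, and chance flags about 1 in 20.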

How the results depend on the processing

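The differences of the 6 Ly6 probes kept their direction wherever a difference had been called, and of 504 alternative values 494 moved by less than the spread between replicates and 10 by more. Of 420 alternative values for other superfamily genes, 394 stayed on their side of the threshold with their direction, 24 lost a call and 2 gained one. Over all probes, 1764 were called for DSS against control, 37 for DSS with MTA against DSS and 535 for DSS with MTA against control. Among the brightest 25% of probes the first 2 counts were 1001 and 15, and with array weights the 3 counts were 2694, 64 and 829. The earlier samples alone gave 23, 0 and 0 and the later alone 110, 0 and 29, from fewer samples. Fits of the 2 compared groups by themselves gave 0 and 343 for the last 2 counts.

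The 2 Ly6 probes past the threshold for DSS against control were 0 in the earlier and 1 in the later samples. For DSS with MTA against control the 2 were 0 in the earlier samples, and 1 in each of the later samples alone, the fit with both sets as a term, 32 units added to the intensity, only the 2 groups compared, array weights, and trend and robust eBayes. Of the other superfamily genes, 5 called for DSS against control were 2 among the brightest 25% and 1 in each set of samples, and the 1 called for DSS with MTA against control was 0 in these. The cause was not tested beyond the smaller number of samples or probes. Leaving out 1 array gave 872 (without control replicate 3) to 2200 probes for DSS against control, 0 (without DSS replicate 2) to 170 (without replicate 2 of DSS with MTA) between the treated groups, and 156 (without control replicate 3) to 854 for DSS with MTA against control. The Ly6 probes past the threshold were 1 to 2, 0 and 1 to 2, and the other superfamily genes 4 to 5, 0 to 1 and 1 to 2.

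Whether equal replicate numbers mark paired samples was not tested, since samples of unlike number were not compared. Of 14 same-number pairs 7 correlated over 0.1, in a range from -0.28 to 0.565. A replicate block gave 2260, 269 and 742 probes, against 1764, 37 and 535 without it. It gave 2, 0 and 2 Ly6 probes, and 7, 1 and 3 other superfamily genes. The correlations of Ly6d, Ly6e, Ly6c1 and Ly6i that passed by both measures kept their sign under all 20 alternatives each, for which p-values were not recomputed. Signal over background limits Ly6i and the 23 of 36 other superfamily probes with means below the array median.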
